A study of Mus musculus and Sus scrofa with 30 samples.

Results

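The enzymes and regulators of de novo lipogenesis were followed across 2 cell systems as they were induced to form fat cells. The set holds 10 genes, taken as every gene whose symbol equals a member's name, ignoring case: Acly, Acaca, Acacb, Fasn, Scd1, Elovl6, Me1, Srebf1, Mlxipl and Thrsp. All 10 were found once in each table, 10 of 24843 mouse genes and 10 of 34307 pig genes, the pig counterpart of Scd1 being SCD. All 10 also passed the minimum mean of 10 normalized counts in both systems, so none was left out of a test.

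The first system was 3T3-L1, a mouse embryonic fibroblast line that can become adipocytes, here stimulated with insulin at 0.75 µg/mL, dexamethasone at 75 nM and IBMX at 37.5 µM in 10% serum. The other, DFAT, is a culture of pig dedifferentiated fat cells, which derive from subcutaneous fat and have reverted to a fibroblast-like state. Their mix held dexamethasone at 0.5 µM, IBMX at 12.5 µM, biotin at 20 µM and pantothenate at 10 µM in 2% serum, and no insulin is listed in it. In each system 3 libraries of bulk RNA were sequenced on day 5 of induction from each of 5 groups. The groups were DMSO vehicle, dicoumarol (a vitamin K antagonist that also blocks the quinone reductase NQO1), magnolol (a lignan from magnolia bark), dicoumarol with magnolol (the combination), and rosiglitazone (a synthetic PPARγ agonist, the receptor that drives fat cell formation). Every group of a system, vehicle included, received that system's induction mix, and no source at hand states at what dose each compound was given. The labels do not say whether the replicates were separate cultures, so the p-values below measure only the spread between these libraries, which may be technical.

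De novo lipogenesis turns surplus carbohydrate into fatty acids. Citrate exported from mitochondria is split to acetyl-CoA by ACLY, carboxylated to malonyl-CoA by the acetyl-CoA carboxylases, built into palmitate by fatty acid synthase with NADPH from malic enzyme and other sources, and then elongated by ELOVL6 and desaturated by stearoyl-CoA desaturase. SREBP-1 (gene Srebf1) carries the insulin signal to these genes and ChREBP (gene Mlxipl) the glucose signal, while Spot 14 (gene Thrsp) is a small nuclear and cytosolic protein of lipogenic tissues that rises late in fat cell formation.

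The values are the authors' counts per gene divided by a DESeq2 size factor for each library, called normalized counts here. The low values step by what 1 read is worth, which gave an estimated depth of 22.8 to 30.7 M reads for the mouse libraries and 44.8 to 70.5 M for those of the pig. Of the summed normalized counts of a library, the 10 genes took 0.0784% to 0.207% (3T3-L1) or 0.322% to 0.700% (DFAT). Levels are not compared between genes, since the tables give no transcript lengths, nor tested between systems, since the tables were normalized separately. Of the preadipocyte and fibroblast markers, Col1a1 lay at 56019.7 to 110125 normalized counts in 3T3-L1 and COL1A1 at 788290.0 to 2040520.0 in DFAT. Dlk1 lay at 9664 to 27581 in 3T3-L1, whereas DLK1 did not pass 0.934 in any DFAT library, and THY1 is not in the pig table. Of the endothelial markers, Cdh5 and Kdr reached at most 5.14 and Pecam1 12.8 in 3T3-L1. In DFAT, CDH5 and KDR reached at most 1.96, while PECAM1 lay at 149 to 236. Of the leukocyte markers, PTPRC was at or below 0.981 in DFAT while CD14 lay at 619 to 949.6 and CD68 at 47.9 to 95.3. In 3T3-L1, Cd14 lay at 77.8 to 238 and Cd68 at 18.5 to 69.2. Of the epithelial markers, CDH1 was at 0 in every DFAT library, EPCAM at most 7.13 and KRT18 at most 15.4. In 3T3-L1, Cdh1 was at most 2.83 and Krt18 at most 3.97. The brown adipocyte genes Ucp1 and Cidea did not pass 1.71 and 1.95 in any 3T3-L1 library. In DFAT, CIDEA was at 9.30 to 19.3 with vehicle, 18.5 to 27.5 with dicoumarol, 28.4 to 38.1 with magnolol, 51.0 to 60.8 with the combination and 28.2 to 33.6 with rosiglitazone.

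The summed level of 7 adipocyte markers (Adipoq, Plin1, Fabp4, Cidec, Lipe, Cd36 and Lep) moved with every treatment and is therefore given before the lipogenesis genes. In 3T3-L1 it was 3621 to 8011 normalized counts with vehicle, 10453 to 22149 with dicoumarol, 27016 to 42272 with magnolol, 35244 to 63222 with the combination and 168126 to 302389 with rosiglitazone. In DFAT the same order held, from 3207 to 3529 with vehicle through 6789 to 7499, 14583 to 17230.1 and 24972 to 29398 to 36961 to 42253 with rosiglitazone. The groups did not overlap in DFAT, whereas the magnolol and combination libraries overlapped in 3T3-L1. Of the 7 markers, Lep was near 0 in 3T3-L1 (0 to 13.6) and low in DFAT (6.11 to 35.7). The sums weigh the most abundant marker most, Fabp4 in 3T3-L1 (2489 to 223878) and CD36 in DFAT (1785 to 19226). The 6 preadipocyte and fibroblast markers summed in 3T3-L1 to 235983 to 260866 with vehicle and 138023 to 179546 with rosiglitazone. The 5 of them listed in the pig table summed to 1581903 to 1734148 with vehicle, 2218790 to 2315920 with dicoumarol and 2529945 to 2898108 with magnolol. Their sum was 2521475 to 2997189 with the combination and 1233578 to 1371921 with rosiglitazone. It is made up mostly of the collagen genes COL1A1 and COL3A1, with medians of 1569430 and 637323. Smooth muscle actin (ACTA2) was also abundant in DFAT, at 55159 to 127515, and the smooth muscle markers summed to 56554 to 72173 with vehicle, 91154 to 98426 with magnolol, 104589 to 118823 with the combination and 79929 to 129826 with rosiglitazone. In 3T3-L1 that sum was 2787 to 5435 with vehicle and 1320.1 to 2499 with rosiglitazone. The part of these markers in the results on lipogenesis genes was not tested, and in bulk RNA a larger share of fat cells and more RNA per fat cell cannot be told apart.

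**Figure D1:**
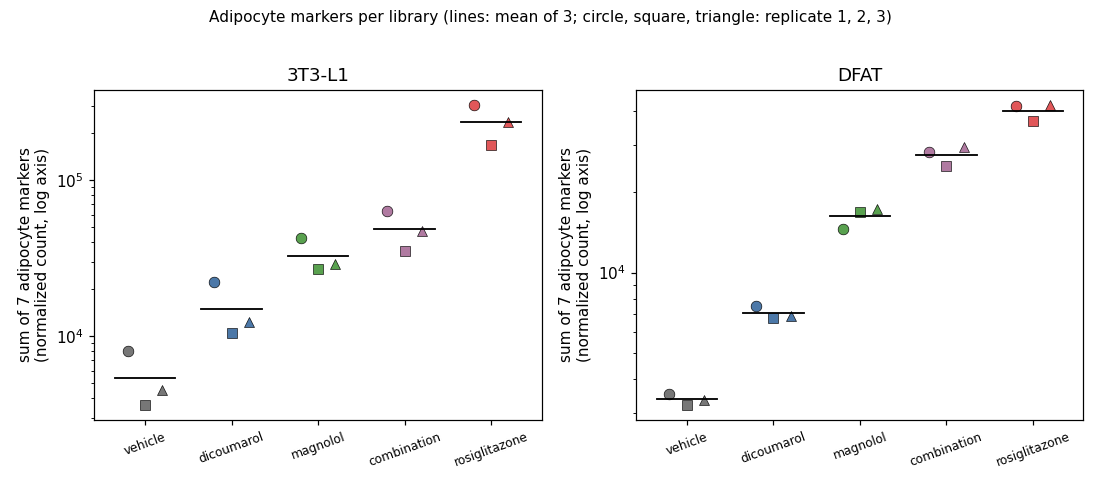
Sum of 7 adipocyte markers per library (normalized counts, log axis) in the 5 groups of 3T3-L1 (left) and DFAT (right); each point is a library, its shape the replicate number, and each line the mean of 3. Both systems run from vehicle, at 3621 to 8011 and 3207 to 3529, to rosiglitazone, at 168126 to 302389 and 36961 to 42253.

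In 3T3-L1 the combination raised 6 of the 10 genes (Acaca, Fasn, Scd1, Me1, Srebf1 and Thrsp), against 5.22% of all genes called in that comparison and 3.86% called higher. Rosiglitazone raised 8 (those 6, Acly and Mlxipl), against 40.1% of all genes called, 20.3% called higher. Magnolol raised 2 (Fasn and Thrsp) against 1.23% of all genes called and 1.07% called higher. Dicoumarol raised none by limma, against 0% of all genes called, although 4 of the 10 had an unadjusted p under 0.05, beside 393 of all 15723 genes. With the replicate number as a block in the fit, the 10 genes gave 1 call for dicoumarol, 7 for magnolol, 7 for the combination and 8 for rosiglitazone, beside 0.502%, 4.96%, 13.5% and 49.8% of all genes. The mean difference from vehicle was above 0 for all 10 genes with each of the 4 treatments, and over all genes for 50.2% under dicoumarol, 49.5% under magnolol, 48.2% under the combination and 49.9% under rosiglitazone. The median log2 fold change of the 10 was 0.28 for dicoumarol, 0.49 for magnolol, 0.66 for the combination and 0.73 for rosiglitazone, where of the medians over all 15723 genes tested the one farthest from 0 was -0.00893.

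In DFAT the same 4 genes, SCD, ELOVL6, MLXIPL and THRSP, rose in the magnolol, combination and rosiglitazone comparisons with vehicle. The background was 4.22% of all genes called for magnolol, 10.2% for the combination and 10.8% for rosiglitazone, and these comparisons share the vehicle libraries. Called higher were 2.96%, 6.11% and 5.8% of all genes. Rosiglitazone also lowered ACACB, against 5.02% of all genes called lower. Dicoumarol raised 1 gene, THRSP, against 1.94% of all genes called and 0.911% called higher. The genes for the steps from citrate to palmitate (ACLY, ACACA and FASN), ME1 and SREBF1 passed the test in none of the 4 comparisons with vehicle. Some of them did with a replicate block or with libraries scaled to the same total, as given below. The median log2 fold change of the 10 was 0.09 for dicoumarol, 0.06 for magnolol, 0.14 for the combination and 0.19 for rosiglitazone, where of the medians over all 14819 genes tested the one farthest from 0 was -0.0104.

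**Figure D2:**
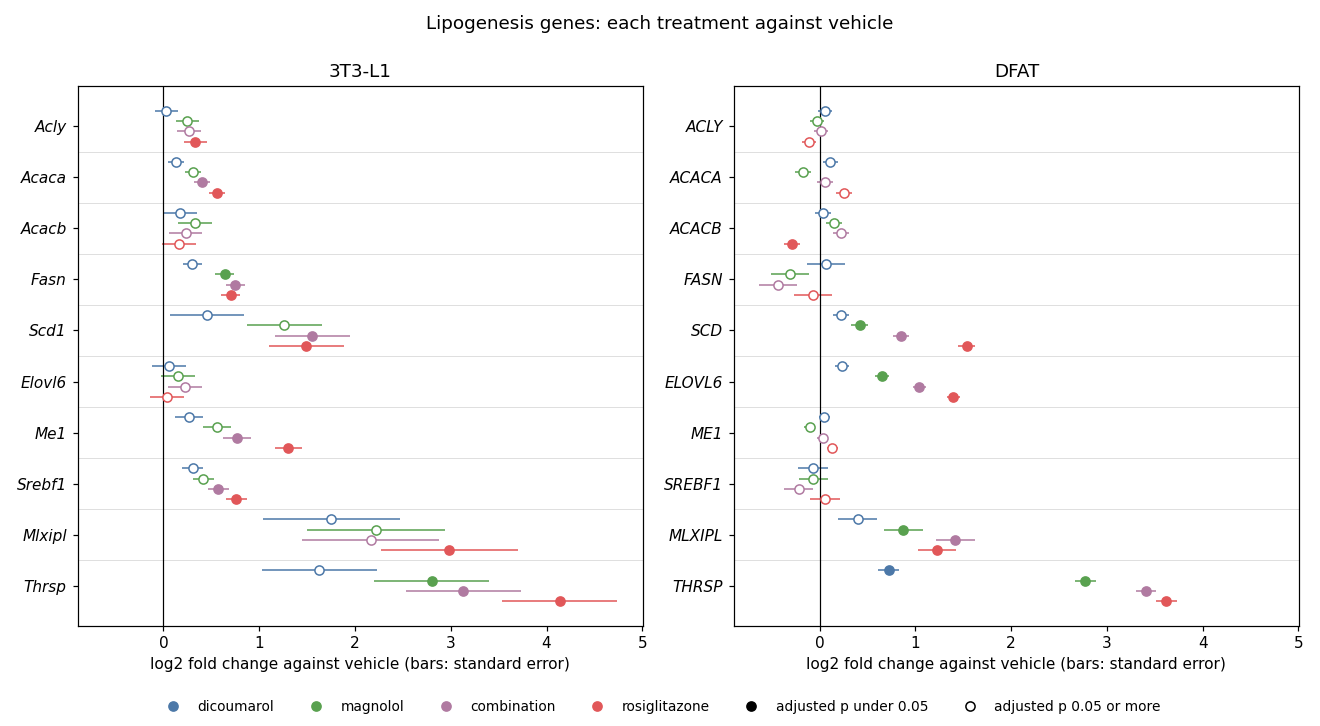
Log2 fold change of each gene against vehicle (x axis, bars ± standard error, 3 libraries a group) for the 4 treatments in 3T3-L1 (left) and DFAT (right); filled points passed an adjusted p of 0.05 by limma. In 3T3-L1 every point lies above 0, while in DFAT the filled points belong to SCD, ELOVL6, MLXIPL and THRSP, and to ACACB below 0 with rosiglitazone.

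Acly (ENSMUSG00000020917, chr11:100476353-100528000, minus strand, GRCm38) encodes ATP citrate lyase, the source of cytosolic acetyl-CoA. In 3T3-L1 its mean level was 4105 ± 221 normalized counts with vehicle (SD, n = 3, as for all means below), 4220.4 ± 683 under dicoumarol, 4895 ± 601 under magnolol, 4943 ± 362 under the combination and 5169 ± 454 under rosiglitazone. Only the rosiglitazone difference passed the test, at a log2 fold change of 0.33 ± 0.12 (SE, as for all fold changes below; adjusted p = 0.0392, limma), and all 3 rosiglitazone libraries lay above all 3 vehicle libraries. That call was lost without vehicle library 2 or 3 or without rosiglitazone library 2 or 3 (adjusted p = 0.0762 to 0.117, limma) and when libraries were scaled to the same total (0.113). In DFAT, ACLY (ENSSSCG00000017421, pig chromosome 12) lay between 19191 and 23914 over all 15 libraries, every treated group overlapped vehicle, and no comparison passed (smallest adjusted p against vehicle 0.407, limma, with rosiglitazone).

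Acaca (ENSMUSG00000020532, chr11:84129672-84401651, plus strand, GRCm38) encodes acetyl-CoA carboxylase 1, the cytosolic enzyme that makes malonyl-CoA for fatty acid synthesis. In 3T3-L1 the vehicle libraries held 1672, 1604 and 1608 normalized counts, the dicoumarol libraries 1837, 1667 and 1858 and the magnolol libraries 2029.9, 2034 and 1988. The combination libraries held 2331, 2023 and 2095 and the rosiglitazone libraries 2179, 2609.8 and 2441. Every magnolol, combination and rosiglitazone library lay above every vehicle library, and the dicoumarol libraries overlapped vehicle. The log2 fold change against vehicle was 0.40 ± 0.084 with the combination (adjusted p = 0.0108, limma) and 0.56 ± 0.084 with rosiglitazone (8.59e-05). With magnolol it was 0.31 ± 0.084, which did not pass (0.11, limma) but did once the replicate number was a block (0.0319). Without combination library 1 the combination call was lost (0.0851, limma). In DFAT, ACACA (ENSSSCG00000017694, pig chromosome 12) averaged 39229 ± 3761 with vehicle, 34749 ± 2503 under magnolol, 40823 ± 2626 under the combination and 46817 ± 3377 under rosiglitazone. Its rosiglitazone difference of 0.26 ± 0.083 just missed the threshold (adjusted p = 0.0569, limma), and passed without vehicle library 1 (0.0245) or rosiglitazone library 3 (0.0418).

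Acacb (ENSMUSG00000042010, chr5:114146535-114250761, plus strand, GRCm38) encodes acetyl-CoA carboxylase 2, the mitochondrial form whose malonyl-CoA restrains fatty acid oxidation. In 3T3-L1 the means ran from 166 ± 11.5 with vehicle to 214 ± 62.8 with magnolol, and no comparison passed the test (smallest adjusted p against vehicle 0.491, limma, with rosiglitazone). In DFAT the vehicle libraries held 561, 545 and 521 normalized counts of ACACB (ENSSSCG00000061436, pig chromosome 14). The combination libraries held 640.5, 643 and 612 and the rosiglitazone libraries 438, 429 and 469.5. Every combination library lay above, and every rosiglitazone library below, every vehicle library. Without a replicate block or rescaling, ACACB was the one gene of the 10 called lower than vehicle in either system. With the block, FASN and SREBF1 were also called lower in DFAT, as given below. ACACB fell by 0.28 (SE 0.083) on the log2 scale with rosiglitazone against vehicle (adjusted p = 0.0343, limma). The combination difference, 0.22 ± 0.083, did not pass (0.108, limma). The rosiglitazone call was lost without vehicle library 1 or 2 or rosiglitazone library 1 or 2 (adjusted p = 0.0775 to 0.124, limma), and when only the compared groups were fitted (0.132).

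Fasn (ENSMUSG00000025153, chr11:120805846-120824547, minus strand, GRCm38) encodes fatty acid synthase, which builds palmitate. In 3T3-L1 the vehicle libraries held 8234, 8066 and 8022 normalized counts and the dicoumarol libraries 10135, 8969 and 10972. The magnolol libraries held 11872, 12108 and 14018, the combination libraries 15017, 12486 and 13534 and the rosiglitazone libraries 12331, 14143 and 13158. All 12 treated libraries lay above all 3 vehicle libraries, and the magnolol, combination and rosiglitazone libraries overlapped one another. Fasn rose 1.56-fold in mean level with magnolol (log2 fold change 0.64 ± 0.10, adjusted p = 0.00831, limma), 1.69-fold with the combination (0.75 ± 0.10, 0.000725) and 1.63-fold with rosiglitazone (0.70 ± 0.10, 5.39e-05). With dicoumarol the log2 difference was 0.30 ± 0.10 and did not pass (adjusted p = 0.9998, limma).

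FASN in DFAT (ENSSSCG00000029944, pig chromosome 12) passed in no comparison with vehicle without a replicate block or rescaling. The vehicle libraries held 68734, 54626 and 45112 normalized counts, the dicoumarol libraries 68379.6, 53577 and 53579.9 and the magnolol libraries 57054, 44211 and 35113. The combination libraries held 51791, 41928 and 31812 and the rosiglitazone libraries 61339, 57116 and 42152. The library numbered 1 was the highest in all 5 groups, and every treated group overlapped vehicle. The log2 difference from vehicle was -0.31 ± 0.20 with magnolol (adjusted p = 0.467, limma), -0.43 ± 0.20 with the combination (0.189) and -0.07 ± 0.20 with rosiglitazone (0.903). With the replicate number as a block, the magnolol (adjusted p = 0.0138, limma) and combination (0.000615) differences passed. Over all genes, same-numbered libraries of vehicle and these groups deviated together only weakly (r = 0.00472 to 0.209 and 0.0331 to 0.166), so that pairing is uncertain. Scaling the libraries to the same total gave the combination an adjusted p of 0.0442 (limma) at a log2 difference of -0.60, where the median of all genes shifted to -0.17.

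The stretch before the mouse Fasn start is shown because the central enzyme Fasn, like Srebf1 and Mlxipl, exceeded vehicle in all 12 treated 3T3-L1 libraries. It is the 250 bases upstream of the RefSeq start (chr11:120824548-120824797, minus strand, GRCm38.p6), with matches to the motifs searched in capitals.
Fasn: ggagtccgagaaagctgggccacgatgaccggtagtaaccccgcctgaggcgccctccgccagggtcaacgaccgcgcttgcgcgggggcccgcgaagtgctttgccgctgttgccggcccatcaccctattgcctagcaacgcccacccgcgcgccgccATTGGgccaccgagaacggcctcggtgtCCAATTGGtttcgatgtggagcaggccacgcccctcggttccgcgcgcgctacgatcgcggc
Both strands of 250 bases before each RefSeq start were searched for the sterol regulatory element core TCACNCCAC, the E-box CACGTG, the CCAAT box (CCAAT) and the GC box (GGGCGG). These motifs were chosen after the values had been seen. The Fasn window holds CCAAT boxes that begin 90, 62 and 59 bases before the start, the last pair overlapping on opposite strands. Of 32851 mouse RefSeq windows of the same length, 33.9% hold a CCAAT box, 32.7% a GC box, 6.02% the E-box and 1.05% the sterol element core. Of the 10 genes, 9 had at least 1 window (13 in all), and 7 of the 13 windows hold a CCAAT box, 5 a GC box, 1 the E-box and 1 the sterol element core. A match is a description of the letters and not a site of binding.

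Scd1 (ENSMUSG00000037071, chr19:44394455-44407879, minus strand, GRCm38) encodes the stearoyl-CoA desaturase that introduces the double bond of palmitoleate and oleate. In 3T3-L1 the vehicle libraries held 7057, 6100.3 and 3331 normalized counts and the dicoumarol libraries 11267, 7371 and 4444. Those given magnolol held 18079, 13341 and 8211, the combination libraries 25881, 14667 and 9532 and the rosiglitazone libraries 16835, 17240.2 and 11022. The library numbered 3 was the lowest of each of the 5 groups, and even so every magnolol, combination and rosiglitazone library lay above every vehicle library. Mean Scd1 was 2.40 times the vehicle mean with magnolol, 3.04 times with the combination and 2.74 times with rosiglitazone. The log2 fold changes of 1.55 ± 0.39 with the combination (adjusted p = 0.03, limma) and 1.49 ± 0.39 with rosiglitazone (0.0064) passed the test. The magnolol value of 1.26 ± 0.39 did not (0.183, limma), but did with the replicate number as a block (1.3e-05). Without the block, the combination call was lost on leaving out vehicle library 2 or 3 or combination library 1 or 2 (adjusted p = 0.0587 to 0.188, limma), without a variance trend (0.0724) and with robust moderation of the variance (0.0663). Mouse Scd1 lies among near-identical Scd copies on chromosome 19 whose reads the counting could split, so its level is uncertain to that extent.

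SCD in DFAT (ENSSSCG00000010554, pig chromosome 14) stepped up from group to group. The vehicle libraries held 85342, 70792 and 80714 normalized counts, the dicoumarol libraries 98798, 86730.3 and 90292 and the magnolol libraries 106669, 105150.0 and 103617. Those given the combination held 152953, 132479 and 140809 and the rosiglitazone libraries 243352, 228144 and 213654. No group overlapped the next in this order from vehicle to rosiglitazone, and the mean with rosiglitazone was 2.89 times that with vehicle. The log2 fold change against vehicle was 0.42 ± 0.087 with magnolol (adjusted p = 0.00773, limma), 0.85 ± 0.087 with the combination (3.5e-06) and 1.53 ± 0.087 with rosiglitazone (1.38e-09). With dicoumarol it was 0.22 ± 0.087, which did not pass (0.328, limma). The magnolol call was lost under quantile normalization (0.131, limma), at a log2 fold change of 0.23.

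Elovl6 (ENSMUSG00000041220, chr3:129532355-129638495, plus strand, GRCm38) encodes the elongase that extends palmitate to stearate. In 3T3-L1 its group means lay between 1089.9 ± 83.1 with vehicle and 1277 ± 170.4 with the combination, every treated group overlapped vehicle, and no comparison passed (smallest adjusted p against vehicle 0.613, limma, with the combination). In DFAT the vehicle libraries held 4554, 4041 and 4654 normalized counts of ELOVL6 (ENSSSCG00000036236, pig chromosome 8) and the dicoumarol libraries 5337, 5017 and 5193. The magnolol libraries held 6575, 6988 and 7235, the combination libraries 9116, 8274 and 9861 and the rosiglitazone libraries 11230.5, 11722 and 11916. The 5 groups were fully separate in that order. ELOVL6 rose by a log2 fold change of 0.65 ± 0.069 with magnolol (adjusted p = 1.28e-05, limma), 1.04 ± 0.069 with the combination (1.77e-08) and 1.40 ± 0.069 with rosiglitazone (2.15e-10), which was 2.63 times the vehicle mean. The dicoumarol difference was 0.23 ± 0.069 and did not pass (0.12, limma), but did under quantile normalization (0.0267).

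Me1 (ENSMUSG00000032418, chr9:86581371-86695953, minus strand, GRCm38) encodes cytosolic malic enzyme, which supplies NADPH to fatty acid synthase. In 3T3-L1 the vehicle libraries held 1402, 1113 and 1096 normalized counts and the dicoumarol libraries 1632, 1226 and 1481. Those given magnolol held 1944, 1563 and 1803, the combination libraries 2320.5, 1642 and 2223 and the rosiglitazone libraries 2971, 2709 and 3201. Every magnolol, combination and rosiglitazone library exceeded every vehicle library, and the rosiglitazone libraries stood above all others. The log2 fold change was 0.77 ± 0.14 with the combination (adjusted p = 0.00448, limma) and 1.30 ± 0.14 with rosiglitazone (5.13e-06), or 2.46 times the vehicle mean. With magnolol it was 0.56 ± 0.14, with an adjusted p of 0.0814 without and 0.000842 with the replicate block (limma). In DFAT, ME1 (ENSSSCG00000004454, pig chromosome 1) kept to a narrow range, 3795 to 4912 over all 15 libraries. All 3 rosiglitazone libraries lay above all 3 vehicle libraries, but the log2 difference of 0.13 ± 0.056 did not pass (adjusted p = 0.167, limma). Scaling to the same total gave ME1 a lower level with magnolol (-0.24, adjusted p = 0.0219, limma), and ACACA likewise (-0.31, 0.0141), where the median of all genes shifted to -0.15.

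**Figure D3:**
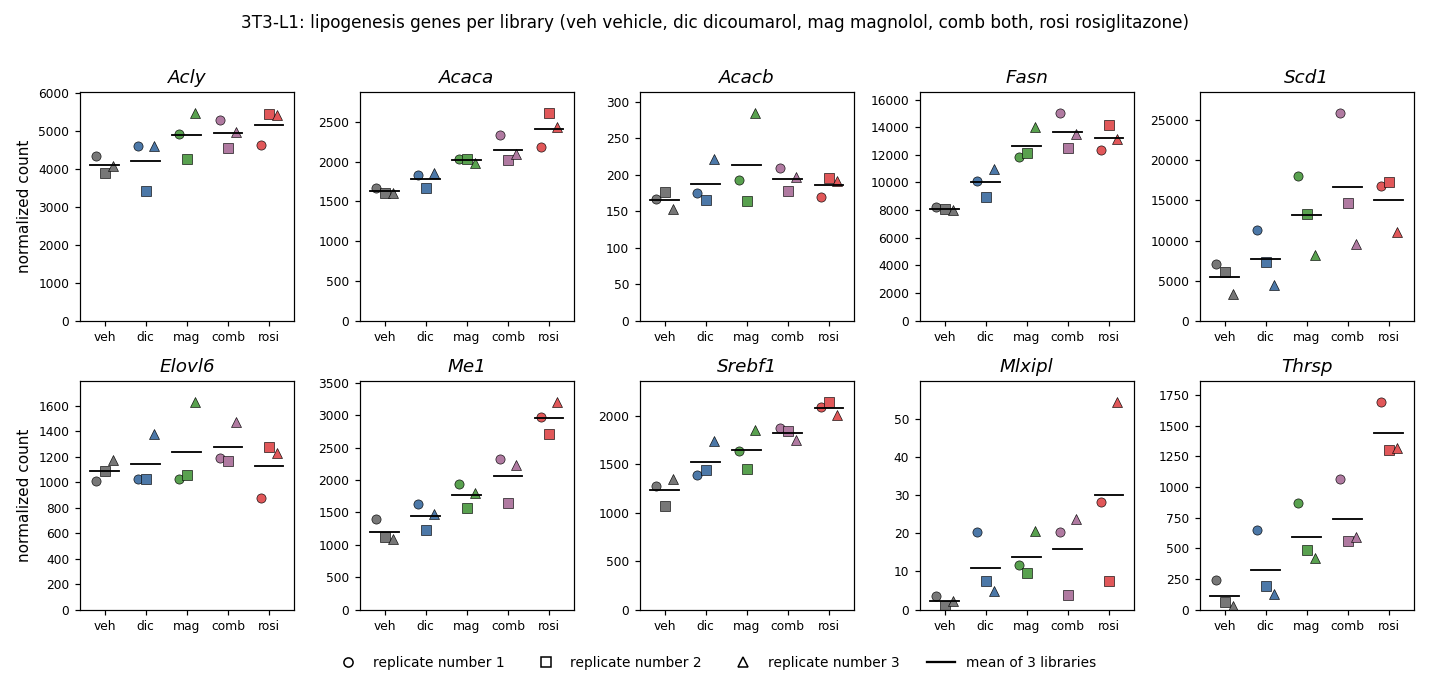
Normalized counts (y axis from 0) of the 10 genes in each 3T3-L1 library, by group; the shape of a point gives the replicate number and each line is the mean of 3 libraries. Fasn is at 8022 to 8234 with vehicle and higher in all 12 treated libraries, while every treated group of Elovl6 overlaps vehicle.

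Among the regulators, Srebf1 (ENSMUSG00000020538, chr11:60199089-60222581, minus strand, GRCm38) encodes SREBP-1, the transcription factor through which insulin raises lipogenic genes. The gene-level values do not separate its 1a and 1c transcripts. In 3T3-L1 the vehicle libraries held 1280.0, 1075 and 1348 normalized counts and the dicoumarol libraries 1387, 1445 and 1746. Those given magnolol held 1638, 1451 and 1852, the combination libraries 1875, 1846 and 1754 and the rosiglitazone libraries 2089, 2144 and 2010.4. Every treated library exceeded every vehicle library, and the rosiglitazone libraries were above the combination libraries without overlap. Srebf1 rose by a log2 fold change of 0.57 ± 0.11 with the combination (adjusted p = 0.00582, limma) and 0.76 ± 0.11 with rosiglitazone (6.5e-05). The magnolol value of 0.42 ± 0.11 had an adjusted p of 0.0973 without and 0.015 with the replicate block (limma). In DFAT the vehicle libraries held 10637, 9514 and 7049.8 normalized counts of SREBF1 (ENSSSCG00000033626, pig chromosome 12), the combination libraries 8836, 7638 and 6692 and the rosiglitazone libraries 11215, 8854 and 8112. In each DFAT group the library numbered 1 was highest and the library numbered 3 lowest, the pattern also seen for FASN in 4 of 5 groups. All treated groups overlapped vehicle, and the log2 differences ran from -0.22 with the combination to 0.06 with rosiglitazone, none of which passed (smallest adjusted p = 0.413, limma). With the replicate block the combination difference passed (adjusted p = 0.0128, limma), under the same uncertain pairing as for FASN.

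Mlxipl (ENSMUSG00000005373, chr5:135089890-135138382, plus strand, GRCm38) encodes ChREBP, the factor that responds to glucose metabolites. It was close to the limit of measurement in 3T3-L1, where the vehicle libraries held 3.56, 0.856 and 2.32 normalized counts and the dicoumarol libraries 20.3, 7.62 and 4.88. The magnolol libraries held 11.6, 9.49 and 20.5, the combination libraries 20.3, 3.78 and 23.8 and the rosiglitazone libraries 28.3, 7.61 and 54.3. Every treated library was above every vehicle library, but libraries of 1 group differed several-fold. Combination library 2 (3.78) and vehicle library 1 (3.56) lay closer than 1 read, which is worth 0.945 and 0.891 in them. Only rosiglitazone passed, at a log2 fold change of 2.98 ± 0.72 (adjusted p = 0.0037, limma), a scale on which the added count of 1 understates changes this low. The combination value of 2.16 ± 0.72 did not pass (0.104, limma), but did without combination library 2 (0.0268) and with the replicate block (0.0128). The block also brought the magnolol value of 2.22 ± 0.72 past the threshold, from 0.211 to 0.0236 (limma).

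In DFAT, MLXIPL (ENSSSCG00000007710, pig chromosome 3) was measured at higher counts. The vehicle libraries held 116, 104 and 74.3 normalized counts and the dicoumarol libraries 162, 102 and 125. The magnolol libraries held 215, 178 and 146, the combination libraries 275, 251 and 251 and the rosiglitazone libraries 289.6, 186 and 217. The magnolol, combination and rosiglitazone libraries all exceeded the vehicle libraries, the dicoumarol libraries overlapped them, and the combination had the highest mean, 2.64 times that of vehicle. The log2 fold change was 0.88 ± 0.20 with magnolol (adjusted p = 0.0168, limma), 1.42 ± 0.20 with the combination (0.00013) and 1.23 ± 0.20 with rosiglitazone (0.00045). The magnolol call was lost without vehicle library 3 or magnolol library 1 or 2 (adjusted p = 0.0518 to 0.103, limma) and with no filter on low genes (0.0653).

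ChREBP is made in a long alpha form and a shorter beta form that starts from another first exon, and gene-level counts do not tell them apart. The mouse gene has 2 RefSeq starts, and the 250 bases before each are shown because the level of Mlxipl cannot be assigned to either. Capitals mark motif matches, window A (chr5:135089640-135089889, plus strand, GRCm38.p6) lies upstream of window B (chr5:135106641-135106890, plus strand), and neither overlaps an annotated exon of the gene.
Mlxipl window A: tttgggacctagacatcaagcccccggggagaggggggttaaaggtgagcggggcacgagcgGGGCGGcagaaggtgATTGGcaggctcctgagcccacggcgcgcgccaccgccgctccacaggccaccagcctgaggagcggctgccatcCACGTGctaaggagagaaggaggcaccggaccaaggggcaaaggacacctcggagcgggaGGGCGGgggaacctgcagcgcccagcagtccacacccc
Mlxipl window B: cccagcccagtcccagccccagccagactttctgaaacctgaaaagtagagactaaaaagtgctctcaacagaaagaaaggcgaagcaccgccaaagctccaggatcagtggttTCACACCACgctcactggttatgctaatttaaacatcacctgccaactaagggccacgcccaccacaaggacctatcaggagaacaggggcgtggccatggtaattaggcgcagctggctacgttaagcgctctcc
Window A holds the only E-box CACGTG among the 13 windows searched, 98 bases before its start, with a CCAAT box at 173 bases and GC boxes at 188 and 38 bases. Window B holds the only match to the sterol element core, 136 bases before its start.

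Thrsp (ENSMUSG00000035686, chr7:97412938-97417730, minus strand, GRCm38) encodes Spot 14. On the log2(value + 1) scale its change was the largest of the 10 genes in both systems in the magnolol, combination and rosiglitazone comparisons. As a ratio of means, low-count Mlxipl was higher in 3T3-L1, at 6.18, 7.10 and 13.4 times its vehicle mean. In 3T3-L1 the vehicle libraries held 243, 61.6 and 33.7 normalized counts and the dicoumarol libraries 647, 191 and 124. Those given magnolol held 869, 489 and 422, the combination libraries 1065, 560.3 and 592 and the rosiglitazone libraries 1691, 1297 and 1320.1. The library numbered 1 was highest in all 5 groups, and in vehicle it held several times the count of the other two, yet every magnolol, combination and rosiglitazone library lay above it. Mean Thrsp was 5.26 times the vehicle mean with magnolol (log2 fold change 2.80 ± 0.60, adjusted p = 0.0313, limma), 6.55 times with the combination (3.13 ± 0.60, 0.00554) and 12.7 times with rosiglitazone (4.14 ± 0.60, 6.47e-05). The dicoumarol value of 1.63 ± 0.60 did not pass (adjusted p = 0.9998, limma), but did with the replicate block (0.0336, SE 0.32). The magnolol call was lost without vehicle library 2 or 3 or any 1 magnolol library (adjusted p = 0.0647 to 0.175, limma), without a variance trend (0.102), with robust moderation (0.106) and with only the compared groups fitted (0.0692). Those fits held no replicate block. With the block and all libraries the magnolol call of Thrsp was kept, at an SE of 0.32.

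In DFAT the libraries of a group lay close together for THRSP (ENSSSCG00000033822, pig chromosome 9). The vehicle libraries held 218, 229 and 185 normalized counts and the dicoumarol libraries 352, 346 and 339.8. The magnolol libraries held 1260.2, 1492 and 1593, the combination libraries 2303, 1952 and 2479 and the rosiglitazone libraries 2817, 2392 and 2580.4. Vehicle, dicoumarol, magnolol and combination followed each other without overlap, and the combination and rosiglitazone libraries overlapped. Without a replicate block or quantile normalization, THRSP was the one gene of the 10 called higher with dicoumarol alone. Its mean rose 1.64-fold there (log2 fold change 0.72 ± 0.11, adjusted p = 0.000894, limma). Its mean was 6.88 times that of vehicle with magnolol (2.78 ± 0.11, 1.3e-11, limma), 10.7 times with the combination (3.41 ± 0.11, 4.33e-13) and 12.3 times with rosiglitazone (3.62 ± 0.11, 1.85e-13). The adipocyte marker sum ran in the same order in DFAT, with means 2.10, 4.83, 8.19 and 12.0 times that of vehicle for dicoumarol, magnolol, the combination and rosiglitazone.

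**Figure D4:**
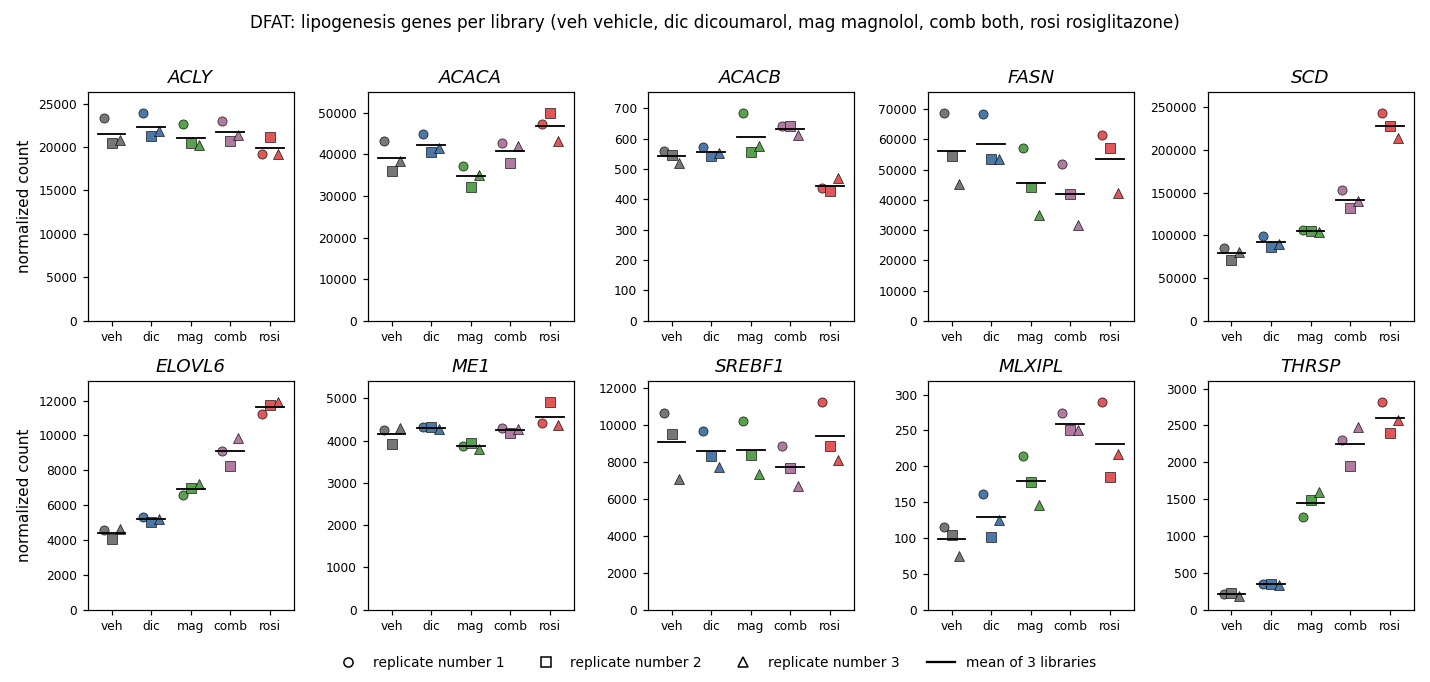
Normalized counts (y axis from 0) of the 10 genes in each DFAT library, by group; the shape of a point gives the replicate number and each line is the mean of 3 libraries. SCD, ELOVL6 and THRSP step upward from vehicle to rosiglitazone, whereas the treated groups of FASN and SREBF1 overlap vehicle. Replicate number 1 is highest in every group for FASN, SREBF1, SCD and MLXIPL.

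Whether the pair of compounds did more than either alone was asked by setting the combination against each. In DFAT, 4 of the 10 genes were higher with the combination than with dicoumarol (background 2.35% called, 2% higher): SCD by a log2 difference of 0.63 ± 0.087 (adjusted p = 0.000294, limma), ELOVL6 by 0.81 ± 0.069 (1.29e-06), MLXIPL by 1.02 ± 0.20 (0.00908) and THRSP by 2.69 ± 0.11 (5.4e-11). The MLXIPL call was lost without dicoumarol library 2 (0.0644, limma). Against magnolol, 3 were higher (background 0.621% called, 0.385% higher): SCD by 0.43 ± 0.087 (0.0268, limma), ELOVL6 by 0.39 ± 0.069 (0.0112) and THRSP by 0.63 ± 0.11 (0.00615). In each of these 3 genes every combination library exceeded every magnolol library. The same held for ACACA, ME1 and MLXIPL, which did not pass. How many of all genes did so was not counted, so the separation is only a description of these libraries. The 3 calls depended on single libraries. SCD lost its call without any 1 magnolol library or combination library 1 or 3 (adjusted p = 0.073 to 0.173, limma), ELOVL6 without magnolol library 1 or combination library 1 or 3 (0.0607 to 0.0916), and THRSP without magnolol library 1 (0.0539). With only the compared groups fitted none of the 3 passed (adjusted p = 0.0773, 0.0884 and 0.0615 for SCD, ELOVL6 and THRSP, limma).

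In 3T3-L1 none of the 10 genes passed between the combination and dicoumarol (background 0.0254%, limma). An unadjusted p under 0.05 was held by 6 of them, beside 1273 of all 15723 genes. With the replicate number as a block 4 passed there, against 3.62% of all genes: Fasn at a log2 difference of 0.45 ± 0.089 (SE of the blocked fit as for the other 3, adjusted p = 0.00952, limma), Scd1 at 1.10 ± 0.13 (0.000126), Me1 at 0.50 ± 0.086 (0.00338) and Thrsp at 1.50 ± 0.32 (0.0158). Between the combination and magnolol none passed with or without the block (background 0%, limma). None had an unadjusted p under 0.05, where 336 of all 15723 genes did. The libraries of the 2 groups overlapped for all 10 genes. How many of all genes overlapped was not counted, so the overlap is only a description of these libraries. The largest difference of the 10 between these groups was Thrsp at 0.33 ± 0.60. The dicoumarol by magnolol interaction asks whether the pair departs from the sum of both log2 changes. It passed for none of the 10 genes in either system by limma (background 0% in 3T3-L1 and 0.081% in DFAT). No gene of the 10 had an unadjusted p under 0.05, where 78 of 15723 and 582 of 14819 genes did.

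Rosiglitazone was then set against the combination. In 3T3-L1 it exceeded the combination in Me1 alone (log2 difference 0.53 ± 0.14, adjusted p = 0.019, limma), while 18.3% of all genes were called and 9.53% called higher. The Me1 call was lost without combination library 2 or rosiglitazone library 1 or 3 (0.0631 to 0.087, limma), and with the replicate block (33.3% of all genes called) Thrsp also passed, at 1.01 ± 0.32 (SE of the blocked fit, adjusted p = 0.0253). For Fasn and Scd1 the differences were -0.05 ± 0.10 and -0.06 ± 0.39 with overlapping libraries. The adipocyte marker sum, in which Fabp4 weighs most, differed far more between these groups, at 35244 to 63222 against 168126 to 302389 normalized counts. In DFAT, where 17% of all genes were called, 8.24% higher and 8.79% lower, SCD was higher with rosiglitazone by 0.69 ± 0.087 (adjusted p = 2.8e-05, limma) and ELOVL6 by 0.36 ± 0.069 (0.0015), and ACACB was lower, at -0.50 ± 0.083 (0.000371). With the replicate block (24.9% of all genes called), FASN at 0.37 ± 0.075 (0.00172, limma), SREBF1 at 0.28 ± 0.057 (0.00171) and ACACA at 0.20 ± 0.065 (0.0349) were higher with rosiglitazone as well (SE of the blocked fit). Scaled to the same total, ACACA, ME1, SREBF1 and THRSP passed too (adjusted p = 0.0423 for SREBF1, the largest of the 4, limma), with the median of all genes at 0.18. THRSP and MLXIPL did not differ past the threshold (adjusted p = 0.186 and 0.583, limma).

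The genes that feed carbon and NADPH into the pathway were described from a list of 12: citrate export, acetyl-CoA and acetoacetyl-CoA synthesis, malate and isocitrate enzymes, other NADPH sources, malonyl-CoA decarboxylase and biotin ligase. In 3T3-L1, 2 of 12 were higher under magnolol, 4 under the combination and 10 under rosiglitazone, where 1 was lower. Over all genes 1.23%, 5.22% and 40.1% were called in these 3 comparisons, 20.3% higher with rosiglitazone. Dicoumarol changed none by limma (2 at an unadjusted p under 0.05, beside 393 of all 15723 genes). The list's median log2 fold change was 0.24, 0.34 and 0.50 with magnolol, the combination and rosiglitazone, beside medians of all genes near 0 as given above. Pyruvate carboxylase (Pcx), which makes oxaloacetate, had the largest rise within the list under the combination, from 5518 ± 259.8 normalized counts with vehicle to 14087 ± 2439 (log2 fold change 1.34 ± 0.12, adjusted p = 6.53e-05, limma), and was at 19779 ± 634 under rosiglitazone. Cytosolic malate dehydrogenase (Mdh1) had the largest rise within the list under rosiglitazone, from 2957 ± 346 to 11319 ± 1801 (1.93 ± 0.13, 1.3e-07, limma). Me3, a mitochondrial malic enzyme at low counts, fell from 20.5 ± 5.84 to 6.64 ± 1.90 with rosiglitazone (0.00539, limma).

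In DFAT, with the combination 3 of 12 were higher and 2 lower, with rosiglitazone 3 were higher and 1 lower, and with magnolol 1 was lower. With dicoumarol none passed by limma (1 at an unadjusted p under 0.05, beside 1504 of all 14819 genes). Over all genes 10.2%, 10.8% and 4.22% were called with the combination, rosiglitazone and magnolol. The list's medians were -0.09, 0.05 and -0.00235 with magnolol, the combination and rosiglitazone. AACS, a cytosolic acetoacetyl-CoA synthetase, had the list's largest rise under the combination (1739.7 ± 118 to 2188 ± 125 normalized counts, adjusted p = 0.01, limma). With rosiglitazone, IDH1, the cytosolic NADP-linked isocitrate dehydrogenase, rose from 9526 ± 424 to 15818 ± 507 (0.73 ± 0.052, 2.7e-08, limma). Pyruvate carboxylase (PC) fell with rosiglitazone in DFAT, from 5776 ± 956 to 3930.0 ± 518 (-0.55 ± 0.13, 0.00699, limma).

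Other elongases and desaturases formed a list of 18, of which 16 could be tested in 3T3-L1 and 13 in DFAT. In 3T3-L1, 1 was higher under magnolol, 3 under the combination and 8 under rosiglitazone, where 2 were lower, beside the same 1.23%, 5.22% and 40.1% of all genes called. The list's median was 0.05 with the combination and 0.29 with rosiglitazone. Scd3, a close copy of Scd1 and thus uncertain in the same way, had the list's largest rise under the combination, from 11.2 ± 8.84 to 58.2 ± 19.5 normalized counts (adjusted p = 0.0133, limma). Elovl3, an elongase of saturated and monounsaturated very long chains, was at 0.775 ± 1.34 with vehicle, too low for a fold, and at 40.0 ± 16.8 with rosiglitazone (0.000175, limma). Elovl4 was lower with rosiglitazone, at 49.8 ± 18.7 against 87.8 ± 22.9 (0.029, limma). In DFAT, 1 was higher with dicoumarol, 1 higher and 1 lower with magnolol, 4 higher and 2 lower with the combination and 3 higher with rosiglitazone, beside 1.94%, 4.22%, 10.2% and 10.8% of all genes called. The list's median was -0.02 with the combination and -0.07 with rosiglitazone. FADS3 had the list's largest rise under the combination (0.56 ± 0.066, adjusted p = 1.75e-05, limma) and ELOVL7 under rosiglitazone (1.05 ± 0.067, 6.22e-09). FADS1, the delta-5 desaturase, fell from 13398 ± 925 to 10192 ± 1067 with the combination (0.0114, limma).

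Of 16 further regulators (partners, processing proteins and inhibitors of SREBP and ChREBP, liver X receptors, USF factors and AMPK subunits), few passed. In 3T3-L1 the liver X receptor gene Nr1h3, which drives Srebf1, was the single riser with magnolol and with the combination, going from 130.1 ± 26.6 normalized counts with vehicle to 308 ± 66.5 and 443 ± 135 (adjusted p = 0.0366 and 0.00166, limma). With rosiglitazone it reached 578 ± 91.9 (1.94e-05, limma) among 3 higher and 3 lower genes, of which Mid1ip1, the paralog of Thrsp, fell most, from 1165 ± 128 to 859 ± 221 (0.0397, limma). Those 6 of 16 stand beside 40.1% of all genes called with rosiglitazone. In DFAT, where 15 were tested, none passed with magnolol or the combination by limma and 1 was higher with dicoumarol (1.94% of all genes called). With magnolol and with the combination 2 each had an unadjusted p under 0.05, beside 2476 and 3642 of all 14819 genes. Rosiglitazone, with 10.8% of all genes called, raised 1, MID1IP1, from 4240.0 ± 303 to 4924 ± 314 (0.0466, limma). The separate mitochondrial fatty acid synthesis pathway, a list of 5, had 1 of 4 tested genes higher with the combination in 3T3-L1 and 3 with rosiglitazone, beside 5.22% and 40.1% of all genes called. Its enoyl reductase Mecr went from 296 ± 47.4 with vehicle to 446 ± 40.1 and 568 ± 21.8 (0.00604 and 1.39e-05, limma). In DFAT none of its 5 genes passed in any comparison with vehicle by limma. With rosiglitazone 1 had an unadjusted p under 0.05, beside 3225 of all 14819 genes.

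The genes most like Fasn over the 15 libraries of a system were named by Pearson correlation of log2 values, as a description: the libraries share groups and replicate numbers and are not independent points. In 3T3-L1, out of 11608 genes compared, these were Aldh6a1 (r = 0.97), Fam107a (0.96), Trpc1 (0.95), Adam19 (0.95) and Lpin1 (0.94). Among the other members, r with Fasn ran from 0.44 for Elovl6 to 0.90 for Acaca. In DFAT, out of 11344 genes, they were LAMTOR1 (0.93), PWP2 (0.93), NOP53 (0.92), DDX49 (0.92) and ELAC2 (0.91). SREBF1 was the member nearest to FASN in DFAT (r = 0.85), followed by ACLY (0.48), while THRSP was at -0.43. Both FASN and SREBF1 had library 1 highest in all 5 DFAT groups, as given above. So did SCD and MLXIPL, whose r with FASN was -0.09 and -0.17.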

How the data were processed

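Messenger RNA libraries (KAPA mRNA HyperPrep, a kit that marks strand, per the labels' protocols) were made from 2 cell systems, 5 groups of 3 in each. The deposited tables hold signal values, gene counts that the authors divided by DESeq2 size factors, per the labels. The submitters' processing notes name bcl2fastq 2.19.1.403, STAR, DESeq2 and GRCm38, the last also for the pig samples. Neither the counter nor the annotation is named. The deposited mouse coordinates are not those of GRCm38 (2.18% of 24070 matched genes share a start), so mouse positions come from GENCODE gene models on GRCm38, and for pig only the chromosome is printed. No column of values was left unmapped (0). In low values of up to 20 reads, 81.7% to 91.0% lay within 0.02 of a whole multiple of 1 read, too few to recover the reads, so no count test was run.

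For each table, log2(normalized count + 1) went into 1 limma model of the 5 groups (limma 3.58.1, R 4.3.3). Variances were moderated with a mean-variance trend, tests were two-sided, and p-values were adjusted by Benjamini-Hochberg over the 15723 (3T3-L1) or 14819 (DFAT) genes with a mean of at least 10. A gene is called where its adjusted p is under 0.05. Fold changes are on the log2(value + 1) scale, which understates changes of low genes. The fit without a block was run on simulated data whose libraries were drawn independently. The 3T3-L1 libraries are paired by replicate number, so that run does not bear on the replicate block. Tables were drawn up with Python 3.11.15, pandas 2.3.3 and numpy 2.4.6, and figures with matplotlib 3.10.9.

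The 10 genes, the lists and the tests were chosen with earlier results of these data known. Beside the 10 genes, the text names from each pathway list the largest rise and the largest fall among genes called with the combination or rosiglitazone, and the 5 genes with a mean of at least 100 whose log2 values correlate best with Fasn. One gene that this rule selects is not reported here. Other pseudocounts, filters, scalings, variance settings, a replicate block, fits of only the compared groups and leaving out each library were tried. The block was used with all libraries only, so fits that left out a library ignore any pairing. No call of the 10 genes was lost with the block. Deviations of libraries from their group means were correlated between groups. They cancel within a group, so the median of -0.142 for different numbers in 3T3-L1 is no separate evidence of pairing. Replicate numbers from the library names pair the 3T3-L1 libraries, since the deviations of same-numbered libraries correlated above 0.1 in all 30 pairs (0.106 to 0.462). In DFAT this held for the combination with magnolol (0.118 to 0.345) and with rosiglitazone (0.105 to 0.288). In these comparisons the fit with a replicate block is quoted wherever it changes a call.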

Additional observations from a re-analysis of the deposited data

Results flagged for a closer look

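In 6 genes every treated library lay on one side of the vehicle mean in 3T3-L1 and on the other side in DFAT under the same treatment, 2 of the 10 each with magnolol, the combination and rosiglitazone. Among 9371 genes tested in both systems and matched by symbol, 12.8%, 19.1% and 15.3% did so with these 3 treatments, so the share of the 10 genes is near that of all genes. The difference between the systems was not tested, since the tables were normalized separately and the systems differ in species and induction mix. With the combination, 3T3-L1 gave Fasn a log2 fold change of 0.75 and DFAT one of -0.43, and Srebf1 was at 0.57 and -0.22. With magnolol, Acaca was at 0.31 and -0.17 and Me1 at 0.56 and -0.10. With rosiglitazone, Acly was at 0.33 and -0.11 and Acacb at 0.16 and -0.28. Of the 6 values in 3T3-L1, those of Fasn, Srebf1 and Acly passed the limma test, and of the 6 in DFAT that of ACACB did. With the replicate block in 3T3-L1, Acaca (adjusted p = 0.0319, limma) and Me1 (0.000842) with magnolol passed as well.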

How the results depend on the processing

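Counts of the 10 genes called are given here by setting. Smaller changes under other scalings and filters are not all listed. With the replicate block the 3T3-L1 counts were 1 (dicoumarol), 7 (magnolol), 7 (combination), 4 (combination against dicoumarol) and 2 (rosiglitazone against combination). The DFAT counts were then 2 (dicoumarol), 5 (magnolol), 6 (combination), 6 (rosiglitazone), 5 (combination against dicoumarol) and 6 (rosiglitazone against combination). In the DFAT comparisons whose libraries share only a number, the block also brought FASN with magnolol (adjusted p = 0.0138, limma), with the combination (0.000615) and against dicoumarol (0.000437), SREBF1 with the combination (0.0128), ACACA with rosiglitazone (0.0108) and ELOVL6 with dicoumarol (0.0217) past the threshold, and same-numbered libraries there correlated at -0.306 to 0.209. Among the 6 libraries of a comparison, 6 (dicoumarol), 3 (magnolol), 5 (combination), 0 (rosiglitazone) and 4 (combination against dicoumarol) correlated best with their own number. The 3T3-L1 magnolol count fell to 1 without a variance trend, with robust moderation and with only the compared groups, where rosiglitazone against the combination rose to 2. In DFAT, quantile normalization gave 2 with dicoumarol, the combination against magnolol fell to 1 without a trend and 0 with only the compared groups, and scaling to the same total gave 7 for rosiglitazone against the combination. Leaving out 1 library gave 1 to 2 (magnolol), 4 to 6 (combination), 7 to 8 (rosiglitazone) and 0 to 1 (rosiglitazone against combination) in 3T3-L1. In DFAT it gave 3 to 4 (magnolol), 4 to 6 (rosiglitazone), 3 to 4 (combination against dicoumarol) and 0 to 3 (combination against magnolol), and no count changed in the other comparisons. The cause of these changes was not tested. No called log2 fold change of the 10 genes changed sign under any setting run.

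Over all genes, the block raised the 3T3-L1 calls from 0 to 79 (dicoumarol), 193 to 780 (magnolol), 821 to 2124 (combination), 4 to 569 (combination against dicoumarol) and 2879 to 5234 (rosiglitazone against combination). In DFAT it raised them from 288 to 670, 626 to 1360 and 1508 to 2643 for dicoumarol, magnolol and the combination, 348 to 893 and 92 to 290 for the combination against dicoumarol and magnolol, and 12 to 34 for the interaction. Scaling DFAT to the same total gave 2576 with magnolol, 4533 with the combination and 5309 for rosiglitazone against the combination (2523 otherwise). The 3T3-L1 magnolol count was 80 without a trend and 102 with only the compared groups, where DFAT rosiglitazone gave 936 (1604 otherwise). With 3 libraries a group, the standard error of a log2 fold change had a median of 0.146 over 3T3-L1 genes and 0.0992 over DFAT genes, which limits what small changes could pass.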
